A study of Mus musculus with 6 samples.

Results

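The collagen genes were taken as all rows of the count table whose gene name is Col, a number, the letter a and a number. This gave 44 genes of 50559 listed, and 43 of them had enough counts to be tested. They were divided by protein class into 11 fibrillar collagens, 6 chains of basement membrane collagen (type IV), 6 chains of type VI collagen and 21 others. Expression had been measured by RNA sequencing in auditory cortex of C57 mice, in 3 libraries with the genotype label WNT3 control and 3 labelled WNT3 Overexpressing. The labels do not state how WNT3 was delivered, in which cells it was driven, what the control mice received, or the age or sex of the animals. They also do not say that the libraries of a group are from separate animals, and the p-values then reflect only how far these libraries lie apart, which may be technical. The extraction protocol speaks of striatum where the tissue label says auditory cortex.

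Total counts ranged from 42614588 to 71803617 per library. The 6 markers of cortical excitatory neurons summed to 1095 to 1212 CPM in controls and 1135 to 1223 CPM in overexpression, on the scale of CPM, counts scaled to the size of the library. The 6 markers of striatal projection neurons summed to 143 to 271 CPM in controls and 169.9 to 217 CPM in overexpression. Wnt3, the overexpressed gene, was at 2.70, 1.91 and 1.74 CPM in controls 1 to 3 and 98.8, 7.45 and 8.71 CPM in overexpression libraries 1 to 3, so all 3 overexpression libraries exceeded the controls, library 1 by far the most. Control 2 stood apart from the other 5 libraries, with correlations to them of log2 CPM over all tested genes of 0.933 to 0.946, against 0.971 to 0.979 among the others. Among the 43 tested collagens, control 2 gave the lowest value of the 6 libraries for 21.

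Collagens are extracellular proteins in which several chains, each with glycine at every step of a short repeat, wind into a triple helix. Fibrillar collagens assemble into the cables of connective tissue, type IV chains into the sheet-like network of basement membranes, and type VI chains into beaded microfilaments beside them. In the brain the basement membrane of blood vessels, the meninges and the perivascular fibroblasts are the main sites of collagen, and neurons make several members of the less abundant classes. In bulk tissue, fewer cells of a type and less RNA per cell cannot be told apart.

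The start regions of the collagens with the smallest p-values are shown so that members with like fold changes can be compared at their starts. Sequences are from RefSeq on GRCm38.p6 (the mm10 assembly), 5′ to 3′ on the strand of the gene, and hold only bases upstream of the transcripts annotated by GENCODE M21 and RefSeq. Capitals in the upstream sequences mark the GC box GGGCGG and CCAAT, on either strand.
Col6a1 (chr10:76726169-76726294, minus strand): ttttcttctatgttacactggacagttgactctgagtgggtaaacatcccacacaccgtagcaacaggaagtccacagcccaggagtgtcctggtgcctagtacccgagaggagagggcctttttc
Col6a2 (chr10:76623631-76623880, minus strand): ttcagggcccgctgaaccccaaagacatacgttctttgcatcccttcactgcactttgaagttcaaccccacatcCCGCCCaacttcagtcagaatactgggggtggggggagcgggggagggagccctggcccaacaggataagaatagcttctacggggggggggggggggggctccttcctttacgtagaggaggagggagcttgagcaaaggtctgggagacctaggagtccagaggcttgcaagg
Col5a1 (chr2:27886175-27886424, plus strand): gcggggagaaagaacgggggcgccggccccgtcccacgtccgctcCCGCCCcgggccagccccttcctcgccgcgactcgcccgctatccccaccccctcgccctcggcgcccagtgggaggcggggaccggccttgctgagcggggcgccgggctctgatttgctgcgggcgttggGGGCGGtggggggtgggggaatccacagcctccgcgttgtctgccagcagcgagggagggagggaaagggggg
Col5a3 (chr9:20815068-20815317, minus strand): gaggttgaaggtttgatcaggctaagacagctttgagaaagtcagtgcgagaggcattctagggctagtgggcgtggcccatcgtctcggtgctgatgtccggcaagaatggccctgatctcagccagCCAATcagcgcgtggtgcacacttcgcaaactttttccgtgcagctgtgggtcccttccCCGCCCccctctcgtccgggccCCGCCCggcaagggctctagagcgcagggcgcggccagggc
Col4a1 and Col4a2 are transcribed away from each other from overlapping starts, so neither window holds a stretch free of annotated exons. The 22 bases where their annotated transcripts overlap are in capitals in the stretch around both starts on the plus strand.
Col4a1 and Col4a2 starts (chr8:11312801-11312830, plus strand): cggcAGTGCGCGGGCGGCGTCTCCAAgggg

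The upstream stretch of Col6a1 held neither motif, that of Col6a2 held 1 GC box, and those of Col5a1 and Col5a3 held 2 each. Col5a3 also held 1 CCAAT. Promoter windows of 300 bases were found for 35 of the 44 collagens (38 windows), and 4 motifs were searched on both strands. GGGCGG was in 23 of the 38 windows (60.5%), against 35.7% of the 32851 windows of all genes. CCAAT was in 13 (34.2%, against 37.4%) and TATAAA in 5 (13.2%, against 13.6%). CTTTGAT, a form of the sequence bound by the TCF and LEF factors of Wnt signalling, was in 1 collagen window, that of Col9a2, and in 3.70% of all windows. These letter matches describe the windows and do not show binding.

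Collagen expression was concentrated in a few genes. On the scale of TPM (the authors' measure, scaled to library size and corrected for transcript length), averaged over the 6 libraries, Col6a1 was highest at 69.3 TPM. It was followed by Col5a1 at 26.4, Col4a2 at 26.0, Col4a1 at 23.8, Col6a2 at 20.4, Col19a1 at 19.5, Col11a1 at 18.5 and Col24a1 at 14.5 TPM. The 10 collagens at 10 TPM or more made up 77.3% of the summed collagen level, and the 16 under 1 TPM made up 2.28%. Col1a1 and Col1a2, the chains of the type I collagen of skin and bone, stood at only 1.21 and 3.01 TPM, and Col3a1 at 0.567 TPM. The lowest members were Col17a1 at 0.0875 TPM and Col10a1, the collagen of growing cartilage, at 0.0380 TPM. Bc1, a small neuronal RNA, took 97702 TPM in control 2 and 24336 to 32645 TPM in the other libraries, which leaves less TPM for all other genes of control 2. On the log2(TPM + 1) scale the median difference over all genes was 0.18, against -0.0069 for the fitted log2 fold changes from counts. The part of Bc1 in this difference was not tested. Because the TPM values are shifted over all genes, fold changes between groups are given from counts unless TPM is named. Shares of the collagen pool and ratios between genes use TPM, as do some values of S100a8 and S100a9.

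Overexpression was compared with control by edgeR's quasi-likelihood test, with p-values adjusted by Benjamini-Hochberg over the 22360 genes tested. At an adjusted p of 0.05 it called 0 collagens and 0 of all genes (0%), and the smallest adjusted p of a collagen was 0.822 by this edgeR test. Of the 43 tested collagens, 32 had a fitted log2 fold change above 0 (74.4%), against 49.3% of all genes. The median log2 fold change of the 43 was 0.35, or 0.26 to 0.51 with single libraries left out, against -0.0069 over all tested genes. On log2(TPM + 1), 30 of 35 collagens that could be tested were above 0, beside 72.1% of all genes. An unadjusted p under 0.05 was reached by 5 collagens, 11.6% of those tested, against 4.65% of all genes. All 5 were higher (against 1.86% of all genes), and they were Col6a1, Col6a2, Col5a1, Col4a1 and Col5a3. None was lower at that threshold (against 2.8% of all genes). Limma voom called 0 collagens. An unadjusted p under 0.05 was reached there by 8 collagens, 2 of them (Col9a1 and Col17a1) lower, beside 1032 of all 22360 genes. DESeq2 called 2 collagens, Col6a1 and Col6a2 (adjusted p = 0.0448 and 0.0350), among 64 genes or 0.248% of those it gave an adjusted p. In 7 collagens every overexpression library lay above every control (16.3%, against 5.89% of all genes), and in 3 every one lay below (6.98%, against 6.04%).

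**Figure D1:**
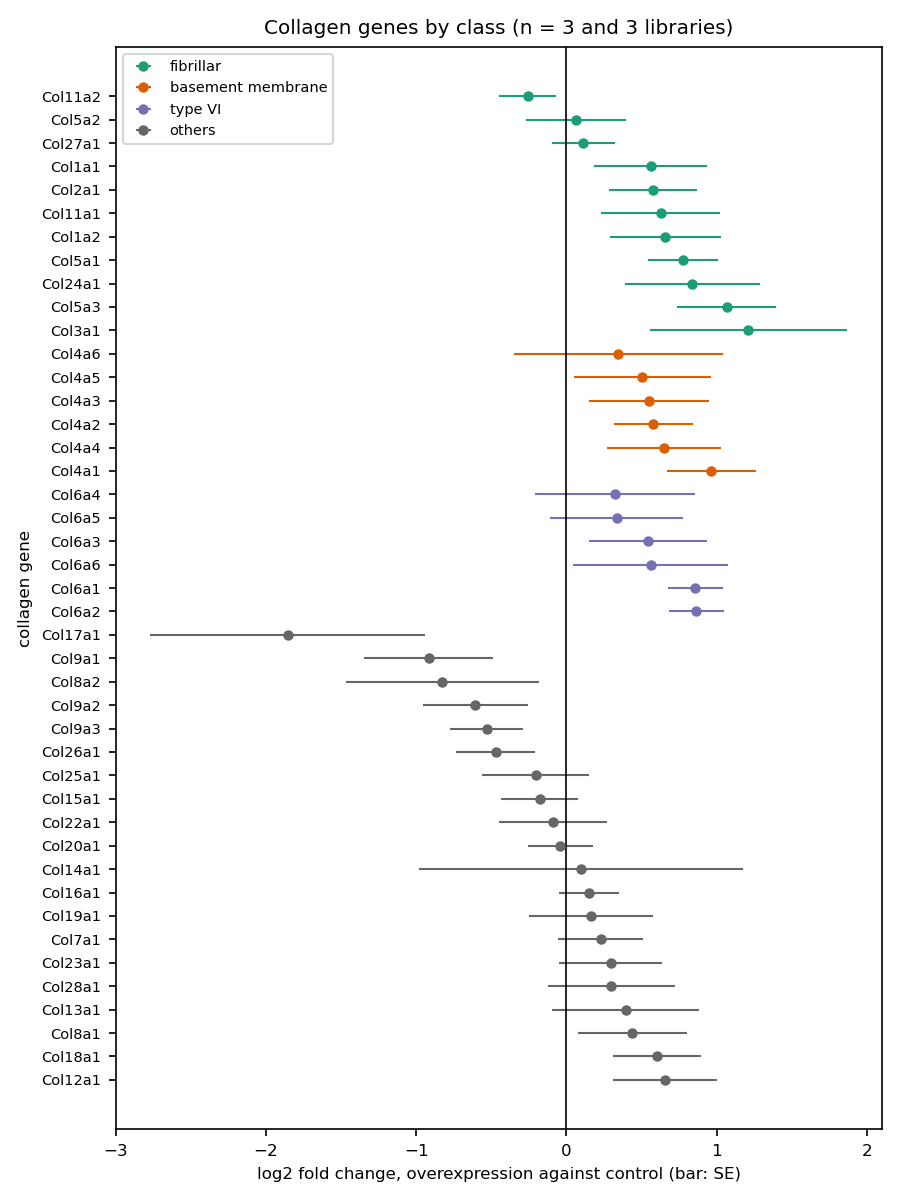
Fitted log2 fold change of the 43 tested collagens (horizontal axis, overexpression against control, 3 libraries each; points are estimates and bars their SE), grouped by class on the vertical axis. All 6 basement membrane and all 6 type VI chains and 10 of the 11 fibrillar collagens lie to the right of 0, whereas 10 of the 20 tested others lie on either side.

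All 6 basement membrane chains had a log2 fold change above 0 (median 0.56), as did all 6 type VI chains (median 0.55) and 10 of 11 fibrillar collagens (median 0.63). Among the 20 tested others, 10 were above 0 and 10 below, with a median of 0.03. All 5 members with an unadjusted p under 0.05 by edgeR (11.6% of the 43, against 4.65% of all genes) belonged to the first 3 classes. All 3 members that lay below every control (Col9a1, Col9a3 and Col17a1) belonged to the others. They were 15% of the 20 tested others and 6.98% of the 43 collagens, near the 6.04% of all genes. The difference between classes was not tested. Without control 2 the medians were 0.39, 0.37, 0.47 and -0.17, in the same order.

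Type VI collagen held the 2 collagens with the smallest unadjusted p by edgeR, Col6a1 and Col6a2. In 2 of the 6 type VI chains and 2 of the 6 basement membrane chains every overexpression library lay above every control. Of all genes, 5.89% did so. The core microfilament of type VI collagen contains the chains of Col6a1, Col6a2 and either Col6a3 or one of the related long chains of Col6a4, Col6a5 and Col6a6. Col6a1 (chromosome 10, positions 76708792 to 76726168 on the minus strand of mm10) was at 95.2, 70.1 and 82.7 CPM in controls 1 to 3 and 138, 139 and 172 CPM in overexpression libraries 1 to 3. Every overexpression library lay above the highest control, library 3 being the highest of all. The means were 82.7 ± 12.6 CPM over the controls and 149.8 ± 19.1 CPM over the overexpression libraries (SD, n = 3 each), a log2 fold change of 0.86 ± 0.18 (SE) with an unadjusted p of 0.00149 by edgeR. Col6a2 (chromosome 10, positions 76595762 to 76623630 on the minus strand) was at 26.1, 25.2 and 19.4 CPM in controls 1 to 3 and 38.8, 45.8 and 43.9 CPM in overexpression libraries 1 to 3. Again the groups did not overlap, and the log2 fold change was 0.86 ± 0.18 (SE), with an unadjusted p of 0.00145 by edgeR. With single libraries left out, it ranged from 0.74 to 0.97 for Col6a1 and from 0.74 to 0.95 for Col6a2. The genes lie 85.2 kb apart on the same strand.

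The long chains of type VI collagen were far less abundant and their groups overlapped. Col6a3, which provides the long chain in most tissues, was at 1.64, 1.155 and 2.14 CPM in the controls and 3.23, 1.53 and 2.44 CPM in overexpression, highest in overexpression library 1 and with library 2 below controls 1 and 3. The fitted log2 fold change was 0.54 ± 0.39 (SE). Col6a4 was at 5.49, 1.96 and 3.38 CPM in the controls and 1.87, 4.50 and 7.14 CPM in overexpression, so that library 1 was the lowest of all 6 and library 3 the highest. Its log2 fold change of 0.32 ± 0.53 (SE) became -0.18 without overexpression library 3. Col6a5 was at 0.657, 1.28 and 1.68 CPM in the controls and 1.02, 1.65 and 1.90 CPM in overexpression, with overexpression library 3 the highest (log2 fold change 0.33, SE 0.44). Col6a6, the rarest of the class, was at 0.305, 0.238 and 0.455 CPM in the controls and 0.678, 0.337 and 0.462 CPM in overexpression, with library 1 the highest (log2 fold change 0.56, SE 0.52). Exons of Col6a4 and Col6a6 overlap transcripts on the other strand, whose reads may be counted with theirs.

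**Figure D2:**
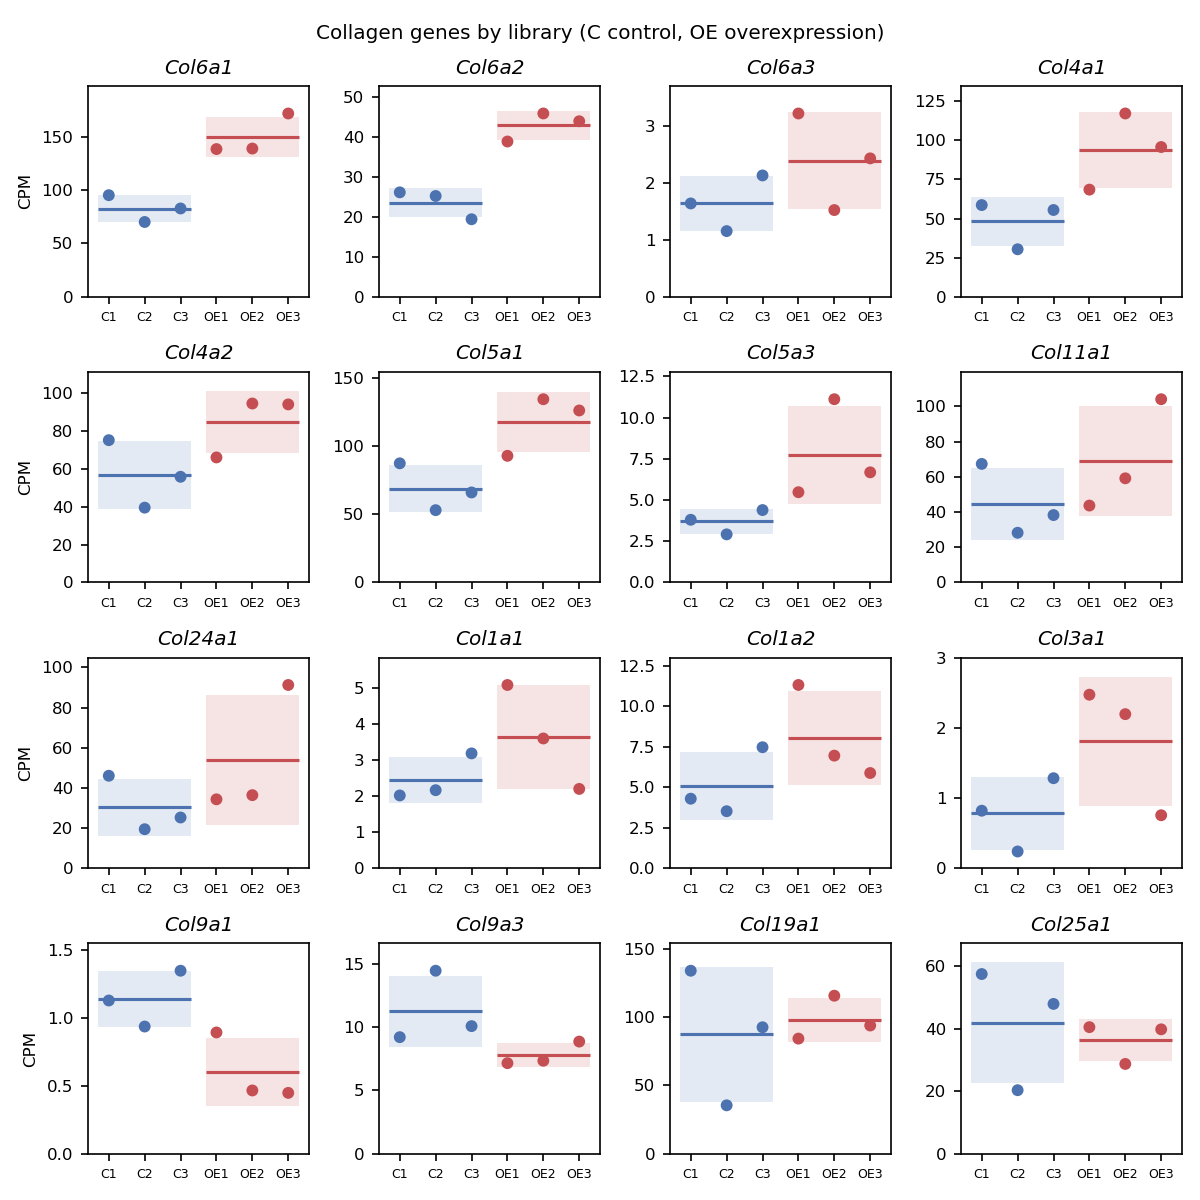
CPM of 16 collagens in each library (vertical axes from 0; points are libraries, C control and OE overexpression; lines are group means and shaded bands 1 SD, n = 3). Col6a1, Col6a2, Col4a1, Col5a1 and Col5a3 are higher in every OE library than in any control, Col9a1 and Col9a3 are lower, and Col11a1 and Col24a1 have a single high library, OE3.

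Basement membrane collagen was led by the Col4a1 and Col4a2 chains, which form the type IV network around nearly all vessels. Col4a1 (chromosome 8, positions 11198423 to 11312826 on the minus strand) was at 58.6, 30.3 and 55.5 CPM in controls 1 to 3 and 68.5, 117 and 95.8 CPM in overexpression libraries 1 to 3. All 3 overexpression libraries lay above the controls, library 2 most of all, and control 2 was the lowest. The log2 fold change was 0.96 ± 0.30 (SE), with an unadjusted p of 0.0113 by edgeR that became 0.0517 without overexpression library 2. Col4a2 (chromosome 8, positions 11312805 to 11449287 on the plus strand) was at 75.1, 39.5 and 55.8 CPM in controls 1 to 3 and 66.0, 94.4 and 94.0 CPM in overexpression libraries 1 to 3. Here overexpression library 1 lay below control 1, so the groups overlapped, and the log2 fold change was 0.58 ± 0.26 (SE), with an unadjusted p of 0.0576 by edgeR and adjusted p of 0.822.

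The other type IV chains are known from specialised basement membranes such as those of the kidney glomerulus and the cochlea, and all were at 1.47 TPM or less. Col4a4 was at 1.34, 0.697 and 1.27 CPM in the controls and 1.68, 2.10 and 1.39 CPM in overexpression, and the groups did not overlap (log2 fold change 0.65, SE 0.38). Col4a3 was at 0.915, 0.568 and 0.653 CPM in the controls and 1.07, 1.29 and 0.770 CPM in overexpression, with overexpression library 3 below control 1 and a log2 fold change of 0.55 ± 0.40 (SE). For the X-linked chains Col4a5 and Col4a6 the controls were split by control 2. Col4a5 was at 4.46, 1.23 and 4.27 CPM in the controls and 5.26, 4.27 and 4.58 CPM in overexpression, and its log2 fold change of 0.50 ± 0.45 (SE) became 0.11 without control 2. Col4a6 was at 1.34, 0.147 and 1.40 CPM in the controls and 1.34, 1.41 and 0.910 CPM in overexpression, and its log2 fold change of 0.35 ± 0.69 (SE) became -0.17 without control 2. Control 2 was the lowest library for all 6 type IV chains, and overexpression library 2 was the highest for 5 of them.

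Endothelial markers followed a similar order of libraries. The 9 markers summed to 281, 246 and 251 CPM in the controls and 346, 458 and 315 CPM in overexpression, with library 2 the highest, and 7 of the 9 had a log2 fold change above 0, against 49.3% of all genes (median 0.55). Flt1, Abcb1a and Pecam1 reached an unadjusted p under 0.05 by edgeR, all higher, against 1.86% of all genes. Flt1, a receptor for vascular endothelial growth factor, was at 55.4, 47.2 and 59.2 CPM in the controls and 83.7, 123 and 86.9 CPM in overexpression, and Cldn5, the tight junction protein of brain endothelium, at 8.89, 26.0 and 7.26 CPM in the controls and 13.2, 13.3 and 11.3 CPM in overexpression. The 9 mural cell markers summed to 227, 203 and 219 CPM in the controls and 235, 278 and 244 CPM in overexpression, and 6 of the 9 were above 0 (median 0.06). Of these markers, 1 reached an unadjusted p under 0.05 by edgeR, against 4.65% of all genes. It was Tagln, lower in every overexpression library, at 0.798, 1.41 and 1.23 CPM in the controls. In overexpression it was at 0.499, 0.402 and 0.574 CPM (log2 fold change -1.22, SE 0.40). None of the endothelial or mural markers was at 0 counts, and their part in the type IV and type VI values was not tested.

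Among fibrillar collagens, the type V chains Col5a1 and Col5a3 had the smallest unadjusted p by edgeR, whereas Col3a1 had the largest log2 fold change (1.21). Col5a1, which regulates the diameter of collagen fibrils, was the most abundant fibrillar gene (chromosome 2, positions 27886425 to 28039514 on the plus strand). It was at 87.4, 53.1 and 66.0 CPM in controls 1 to 3 and 92.9, 134 and 126 CPM in overexpression libraries 1 to 3. The groups did not overlap, although overexpression library 1 lay only just above control 1. The log2 fold change was 0.78 ± 0.23 (SE), with an unadjusted p of 0.0102 by edgeR. Col5a3 (chromosome 9, positions 20770050 to 20815067 on the minus strand), a second type V chain, was at 3.80, 2.92 and 4.39 CPM in controls 1 to 3 and 5.48, 11.1 and 6.68 CPM in overexpression libraries 1 to 3. All 3 overexpression libraries were above the controls, with library 2 at the top, and the log2 fold change was 1.07 ± 0.33 (SE). Its unadjusted p of 0.0116 by edgeR became 0.0576 without overexpression library 2. Col5a2, the usual partner of Col5a1 in type V fibrils, did not share this pattern, at 2.91, 1.91 and 3.80 CPM in the controls and 3.30, 3.28 and 2.42 CPM in overexpression. Its groups overlapped, and the log2 fold change of 0.06 ± 0.33 (SE) changed sign without control 2, overexpression library 1 or overexpression library 2. Exons of Col5a1 overlap the transcripts 2810430I11Rik and Gm13372 on the other strand by up to 113 bases.

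Types I and III, the collagens of meninges and perivascular fibroblasts, had overlapping groups. Col1a1 was at 2.02, 2.16 and 3.18 CPM in the controls and 5.08, 3.599 and 2.20 CPM in overexpression, Col1a2 was at 4.29, 3.52 and 7.48 CPM in the controls and 11.3, 6.96 and 5.88 CPM in overexpression, and Col3a1 was at 0.821, 0.238 and 1.29 CPM in the controls and 2.48, 2.20 and 0.756 CPM in overexpression. All were highest in overexpression library 1, and all had overexpression library 3 below control 3. The log2 fold changes were 0.56 ± 0.38 (SE), 0.66 ± 0.37 (SE) and 1.21 ± 0.66 (SE) in the same order, with unadjusted p of 0.174, 0.112 and 0.102 by edgeR. Without overexpression library 1 they were 0.24, 0.34 and 0.92. The 12 fibroblast markers that are not collagens summed to 52.7, 49.9 and 81.7 CPM in the controls and 115, 78.5 and 40.0 CPM in overexpression, likewise highest in library 1 and lowest in library 3. Of these 12, 11 had a log2 fold change above 0, against 49.3% of all genes (median 0.41), and none was at 0 counts. Dcn, a small proteoglycan that coats fibrils, was at 6.34, 6.62 and 9.12 CPM in the controls and 23.5, 9.08 and 6.79 CPM in overexpression. The part of fibroblast content in the values of types I and III was not tested.

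Another order of libraries was found in Col11a1 and Col24a1, fibrillar chains at 18.5 and 14.5 TPM, both above type I here. Col11a1, a regulator of cartilage fibrils that is also expressed by neurons, was at 67.3, 28.2 and 38.3 CPM in the controls and 43.7, 59.1 and 104 CPM in overexpression. Col24a1 was at 46.0, 19.4 and 25.2 CPM in the controls and 34.3, 36.4 and 91.3 CPM in overexpression. In both genes overexpression library 3 was the highest, control 1 lay above at least 1 overexpression library, and the groups overlapped. The log2 fold change of Col11a1 was 0.63 ± 0.40 (SE), or 0.20 without overexpression library 3. That of Col24a1 was 0.84 ± 0.45 (SE), or 0.22 without the same library. Col11a2, a partner chain of Col11a1 in type XI collagen, was the 1 fibrillar member below 0. It was at 28.0, 28.7 and 26.6 CPM in the controls and 20.01, 21.4 and 28.3 CPM in overexpression, a log2 fold change of -0.26 ± 0.19 (SE). Col2a1, the main collagen of cartilage, was at 1.34, 1.34 and 1.33 CPM in the controls and 1.91, 2.23 and 1.83 CPM in overexpression. Its groups did not overlap at this low level, with a log2 fold change of 0.58 ± 0.29 (SE) and an unadjusted p of 0.0826 by edgeR. Col27a1 had a log2 fold change of 0.11 ± 0.21 (SE), or -0.0011 without control 3.

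**Figure D3:**
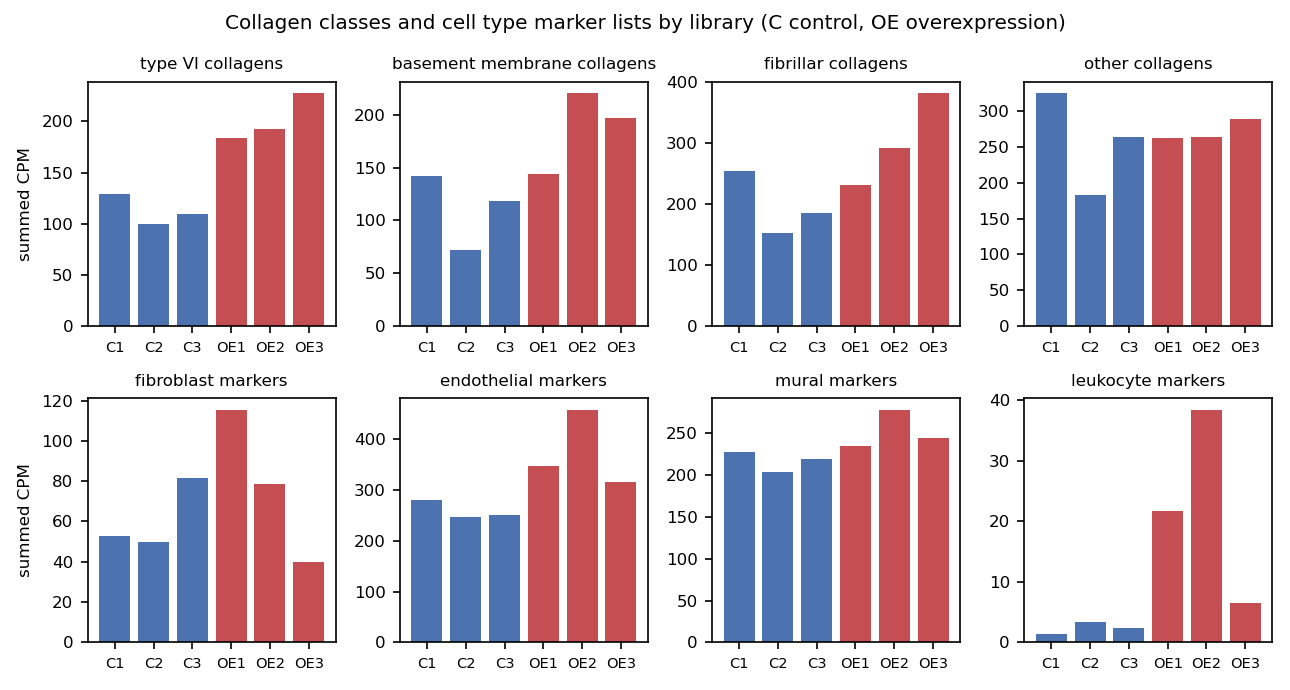
Summed CPM (vertical axes from 0) of the 4 collagen classes (upper row) and of 4 lists of cell type markers (lower row) in each library (C control, OE overexpression). Basement membrane collagens and endothelial markers are both highest in OE2, type VI and fibrillar sums are highest in OE3, and fibroblast markers are highest in OE1 and lowest in OE3.

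The FACIT collagens, which attach to the surface of fibrils, had fold changes in both directions. Of 9 members, 4 had a log2 fold change above 0 (median -0.04). The 3 chains of type IX collagen were all below 0. Col9a1 was at 1.13, 0.935 and 1.34 CPM in controls 1 to 3 and 0.892, 0.466 and 0.448 CPM in overexpression libraries 1 to 3. Every overexpression library lay below every control, and the log2 fold change was -0.92 ± 0.43 (SE), with an unadjusted p of 0.0629 by edgeR. Col9a3 was at 9.20, 14.4 and 10.1 CPM in the controls and 7.15, 7.34 and 8.85 CPM in overexpression, again with no overlap. Its log2 fold change was -0.53 ± 0.24 (SE), with an unadjusted p of 0.0607 by edgeR. Control 2 was its highest library, and without control 2 the log2 fold change was -0.31. Col9a2 was at 3.66, 7.24 and 3.50 CPM in the controls and 2.68, 3.68 and 3.11 CPM in overexpression, with control 2 far above the rest and a log2 fold change of -0.61 ± 0.35 (SE), or -0.18 without control 2. Exons of Col9a3 share up to 234 bases with Tcfl5 on the other strand, so some of its counts may belong to that gene.

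Col19a1, a neuronal FACIT collagen that takes part in the formation of inhibitory synapses, was the most abundant of the others. It was at 134, 35.5 and 92.5 CPM in controls 1 to 3 and 84.2, 116 and 93.8 CPM in overexpression libraries 1 to 3. Control 2 was the lowest library and control 1 the highest, so the spread of the controls exceeded that of the overexpression libraries, and the log2 fold change of 0.17 ± 0.41 (SE) became -0.21 without control 2. Col12a1 was at 24.5, 10.6 and 18.4 CPM in the controls and 29.2, 19.0 and 36.1 CPM in overexpression, highest in overexpression library 3, with a log2 fold change of 0.66 ± 0.34 (SE). Col16a1 was at 28.2, 28.8 and 24.7 CPM in the controls and 23.8, 30.0 and 36.8 CPM in overexpression, again highest in library 3, while library 1 was the lowest of all (log2 fold change 0.15, SE 0.20). Col20a1 and Col22a1 had log2 fold changes of -0.04 ± 0.22 (SE) and -0.09 ± 0.36 (SE). Col14a1 had 0 counts in control 2 against 106 and 121 in controls 1 and 3, and 93 to 125 in the overexpression libraries. Its log2 fold change was 0.10 ± 1.08 (SE), or -0.49 without control 2.

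The transmembrane and remaining collagens showed no shared direction. Col25a1, a neuronal membrane collagen first found in amyloid plaques, was at 57.5, 20.4 and 47.9 CPM in the controls and 40.5, 28.7 and 39.8 CPM in overexpression, a log2 fold change of -0.21 ± 0.36 (SE) that became 0.09 without control 1 and -0.53 without control 2. Col23a1 was at 9.83, 13.7 and 14.97 CPM in the controls and 20.8, 8.39 and 18.1 CPM in overexpression (log2 fold change 0.30, SE 0.34). Col13a1 was high in overexpression library 1 alone, at 0.939, 0.752 and 1.17 CPM in the controls and 2.16, 0.884 and 0.728 CPM in overexpression. The log2 fold change was 0.40 ± 0.49 (SE), or -0.24 without that library. Col17a1, an adhesion protein of skin, had 18, 19 and 15 counts in the controls and 0, 9 and 10 in overexpression. Its log2 fold change was -1.85 ± 0.91 (SE), with an unadjusted p of 0.0762 by edgeR, on too few counts to set its size closely. Among the endostatin-type collagens of vascular basement membranes, Col18a1 was at 2.25, 3.28 and 2.85 CPM in the controls and 3.25, 4.72 and 4.76 CPM in overexpression, with only overexpression library 1 inside the range of the controls (log2 fold change 0.60, SE 0.29). Col15a1 was at 11.6, 7.02 and 8.62 CPM in the controls and 6.97, 9.19 and 7.93 CPM in overexpression. Its log2 fold change of -0.18 ± 0.25 (SE) became 0.04 without control 1.

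Of the short-chain network collagens, Col8a1, a vascular wall collagen, was at 3.26, 2.90 and 3.24 CPM in the controls and 5.44, 5.06 and 2.25 CPM in overexpression. Libraries 1 and 2 of overexpression were above every control and library 3 was below, with a log2 fold change of 0.44 ± 0.36 (SE). Col8a2 was at 0.282, 1.61 and 1.503 CPM in the controls and 0.410, 0.594 and 0.910 CPM in overexpression, with control 1 the lowest of all and a log2 fold change of -0.83 ± 0.64 (SE). Col10a1 was the 1 member not tested, with 7 counts in control 3, 13 in overexpression library 3 and 0 in the other 4 libraries. Col7a1, the anchoring fibril collagen of skin, had a log2 fold change of 0.23 ± 0.28 (SE), Col26a1 one of -0.47 ± 0.26 (SE) and Col28a1 one of 0.30 ± 0.42 (SE). The groups of all these overlapped.

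Summed over all members, collagens took 851, 508 and 679 CPM in the controls and 821, 969 and 1095 CPM in overexpression, so overexpression library 1 lay below control 1 and the groups overlapped. The summed CPM of type VI was 113 ± 15.02 in controls and 202 ± 23.1 in overexpression (SD, n = 3 each), 1.78 times as much. Basement membrane chains summed to 111 ± 35.3 and 187 ± 39.4 CPM (SD, n = 3 each). The groups did not overlap in either sum, although the basement membrane sum was 142 CPM in control 1 and 144 CPM in overexpression library 1. The fibrillar sum was 198 ± 51.8 and 301 ± 76.0 CPM, with groups that overlapped, and that of the others 257 ± 71.5 and 272 ± 14.4 CPM (SD, n = 3 each). These sums are set mostly by the few abundant members of each class.

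The make-up of the collagen pool, which does not depend on the depth or scaling of a library, separated the groups in 2 of the 4 classes. Type VI chains made up, of summed collagen TPM, 24.0%, 27.7% and 24.8% in controls 1 to 3, against 33.6%, 30.6% and 31.3% in overexpression libraries 1 to 3. The others made up 34.2%, 37.0% and 35.3% in controls 1 to 3, against 28.0%, 24.0% and 23.2% in overexpression libraries 1 to 3. For both classes the groups did not overlap, on the TPM scale and on the CPM scale alike. The fibrillar share was 24.3% ± 1.33 in controls and 25.6% ± 3.16 in overexpression (SD, n = 3 each), and it overlapped. The basement membrane share was 15.9%, 11.9% and 16.2% in controls 1 to 3, against 15.4%, 20.6% and 16.4% in overexpression libraries 1 to 3, with overlap on this scale. On the CPM scale its highest control and its lowest overexpression library were both at 17.5%, with no overlap. The shares sum to a fixed total, so a larger share of one class requires a smaller share of another, and they were not tested.

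**Figure D4:**
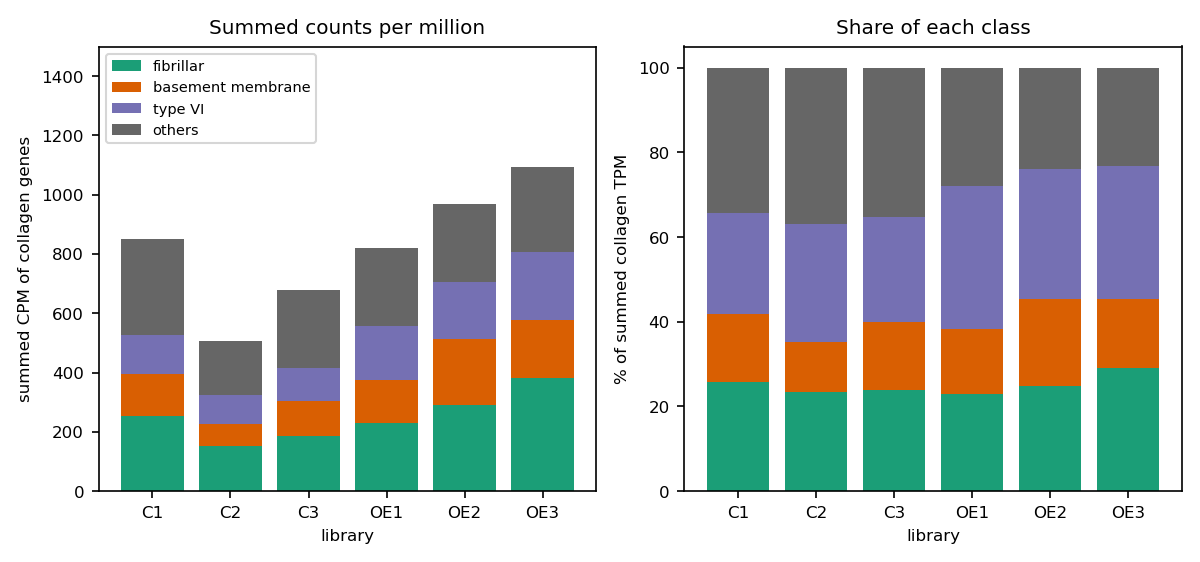
Collagen expression by class in each library (C control, OE overexpression), as summed CPM (left, bars from 0) and as the percentage of summed collagen TPM (right). The total overlaps between the groups, whereas the type VI share is larger and the share of the others smaller in every OE library than in any control.

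In 9 of the 12 ratios computed between collagen genes, the ratio varied less over the 6 libraries than the level of either gene, the exceptions being Col5a2 to Col5a1, Col11a1 to Col11a2 and Col9a3 to Col9a2. The ratio of Col6a1 to Col6a2 on the TPM scale was 3.55, 2.71 and 4.09 in the controls, against 3.43, 2.92 and 3.77 with WNT3. Its coefficient of variation over the 6 libraries was 15.2%, against 40.8% and 40.7% for the TPM of each gene. The ratio of Col1a1 to Col1a2 was 0.411, 0.540 and 0.375 in the controls, against 0.395, 0.456 and 0.329 with WNT3, with a coefficient of variation of 17.5% against 48.1% and 50.5%. For these pairs the groups overlapped. A shift shared by all genes of a library enters the levels but cancels in the ratio.

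The ratio of Col4a1 to Col4a2, whose starts overlap, was 0.705, 0.678 and 0.896 in the controls, against 0.918, 1.11 and 0.946 with WNT3. The means were 0.760 ± 0.119 and 0.992 ± 0.105 (SD, n = 3 each). Its coefficient of variation was 18.5%, against 49.3% and 37.1% for the genes. The groups did not overlap in this ratio, the 1 such case among the 12 ratios. In CPM of single genes the groups did not overlap for 5.89% (higher) and 6.04% (lower) of all genes. The ratios were not tested. The other head-to-head pair with close starts, Col4a3 and Col4a4, 72 bases apart, had a ratio of 0.742, 0.898 and 0.571 in the controls, against 0.652, 0.670 and 0.608 with WNT3, with overlap. Col4a6 and Col4a5 start 1309 bases apart, and their ratio was 0.292, 0.115 and 0.322 in the controls, against 0.249, 0.324 and 0.197 with WNT3. Col24a1 and Col11a1, which lie on chromosome 3 but are not neighbours, kept a ratio of 0.751, 0.694 and 0.705 in the controls, against 0.837, 0.658 and 0.908 with WNT3. That ratio varied by 12.6%, against 64.8% and 53.0% for the genes. The ratio of Col11a1 to its partner Col11a2 was 2.24, 0.988 and 1.40 in the controls, against 2.07, 2.61 and 3.65 with WNT3 and varied by 43.4%, against 53.0% and 15.4% for the genes. The Col5a2 to Col5a1 ratio was 0.0422, 0.0456 and 0.0728 in the controls, against 0.0449, 0.0309 and 0.0244 with WNT3.

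**Figure D5:**
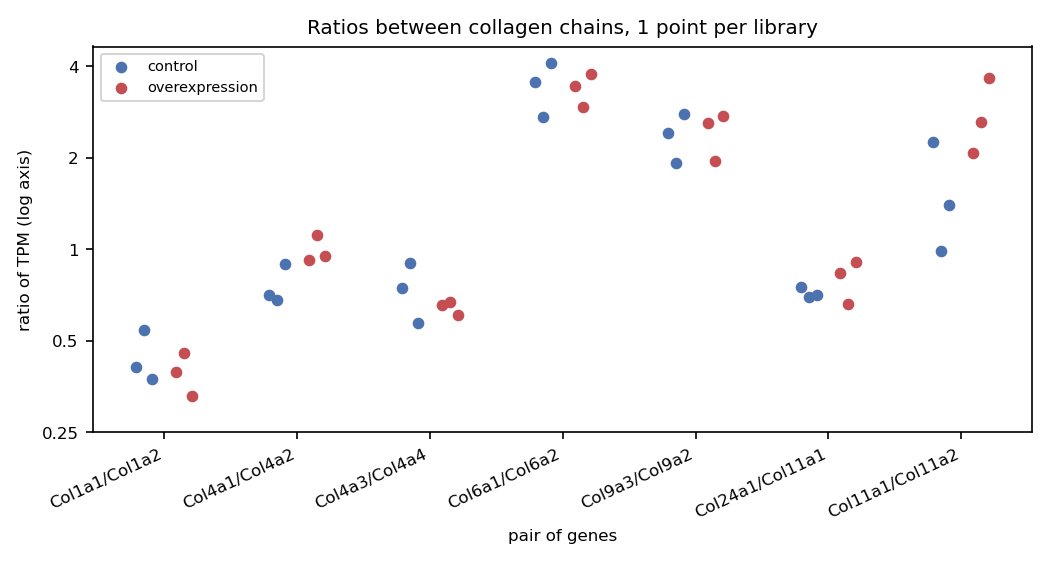
Ratio of TPM between collagen genes (vertical axis, log scale) for 7 pairs, with 1 point per library (control and overexpression, 3 each). Among the 7 pairs plotted, the groups are apart for Col4a1/Col4a2, at 0.678 to 0.896 in controls and 0.918 to 1.11 in overexpression.

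Genes that make, process and bind collagen were followed by the same test, and 0 of them passed an adjusted p of 0.05 by edgeR. Of 17 tested genes of collagen biosynthesis and secretion, 10 were above 0 (median 0.07), against 49.3% of all genes, and 1 had an unadjusted p under 0.05, against 4.65% of all genes. It was Colgalt2, which adds galactose to hydroxylysine of collagen chains, at 6.78, 5.92 and 8.37 CPM in the controls and 14.5, 12.8 and 10.5 CPM in overexpression. The groups did not overlap (log2 fold change 0.84, SE 0.23). The collagen chaperone Serpinh1 was at 8.21, 14.5 and 10.7 CPM in the controls and 9.26, 7.84 and 13.1 CPM in overexpression, a log2 fold change of -0.15 ± 0.29 (SE). Ppib, a prolyl isomerase of the same complex as the prolyl hydroxylase P3h1, was at or near one level except in control 2 (log2 fold change -0.60, SE 0.33), which stood at 115 CPM against 46.3 to 51.2 CPM in the other libraries.

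Of 12 tested genes of extracellular processing and crosslinking, 10 were above 0 (median 0.30), against 49.3% of all genes, and 3 had an unadjusted p under 0.05, against 4.65%. Lox, which crosslinks fibrils, was at 0.399, 0.147 and 0.297 CPM in the controls and 0.803, 0.594 and 0.644 CPM in overexpression (log2 fold change 1.28, SE 0.51). Adamts14, a protease that removes the amino propeptide, was at 0, 0 and 0.0989 CPM in the controls and 0.624, 0.787 and 0.420 CPM in overexpression, with 0 counts in controls 1 and 2. Loxl1, a relative of Lox, was lower in every overexpression library, at 0.821, 0.642 and 0.969 CPM in the controls and 0.428, 0.193 and 0.476 CPM in overexpression (log2 fold change -1.14, SE 0.49). Adamts2, the main amino propeptidase of fibrillar collagen, was at 2.75, 1.19 and 3.36 CPM in the controls and 5.24, 4.03 and 4.08 CPM in overexpression, without overlap (log2 fold change 0.87, SE 0.40). Lox, Adamts14 and Loxl1 were under 1 CPM in all 6 libraries.

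Of 9 tested collagen receptors, 8 were above 0 (median 0.31), against 49.3% of all genes, and 1 had an unadjusted p under 0.05, against 4.65%. Itga11, an integrin subunit for fibrillar collagen, was at 1.27, 1.01 and 1.31 CPM in the controls and 3.602, 2.97 and 1.88 CPM in overexpression, with no overlap, a log2 fold change of 1.24 ± 0.35 (SE) and an unadjusted p of 0.00727 by edgeR. Itga1, the subunit that binds type IV collagen, was at 7.63, 2.16 and 8.92 CPM in the controls and 11.9, 11.8 and 9.16 CPM in overexpression (log2 fold change 0.82, SE 0.46). Adgrg1, a receptor for type III collagen in the developing cortex, had a log2 fold change of 0.07 ± 0.16 (SE). Of the 15 basement membrane partners, 13 were above 0 (median 0.22), and 2 had an unadjusted p under 0.05, Nid1 and Lamc3. Nid1, which links laminin to type IV collagen, was at 5.12, 2.99 and 5.58 CPM in the controls and 8.04, 7.94 and 6.93 CPM in overexpression (log2 fold change 0.74, SE 0.29), and the laminin chain Lamc3 at 3.52, 3.23 and 4.69 CPM in the controls and 7.13, 6.35 and 5.32 CPM in overexpression (log2 fold change 0.72, SE 0.26). The groups of both did not overlap. Of 9 fibril partners, 8 were above 0 (median 0.71), and 1 had an unadjusted p under 0.05. Fn1, fibronectin, was at 33.2, 20.3 and 34.5 CPM in the controls and 65.8, 76.5 and 43.4 CPM in overexpression (log2 fold change 1.08, SE 0.28), with no overlap.

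The 7 leukocyte markers, which include S100a8 and S100a9 of neutrophils and Ccr2 of monocytes, summed to 1.45, 3.41 and 2.35 CPM in the controls and 21.7, 38.5 and 6.53 CPM in overexpression, above every control in each overexpression library. Of the 4 with enough counts to be tested, 3 reached an unadjusted p under 0.05 by edgeR (S100a8, S100a9 and Ccr2), all higher, against 1.86% of all genes. On the TPM scale S100a8 was at 40.4 and 107 TPM and S100a9 at 40.6 and 85.6 TPM in overexpression libraries 1 and 2, and the highest control values were 2.05 and 3.26 TPM. The T cell marker Cd3e was at 0 in controls 1 and 2. The 8 choroid plexus markers summed to 3.66, 4.11 and 6.45 CPM in the controls and 10.6, 5.53 and 3.68 CPM in overexpression, and Otx2 was at 0 in 5 of the 6 libraries. The part of these cells in the collagen values was not tested.

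Collagen transcripts are long, and control 2 gave lower values for long transcripts. Relative transcript length, taken as deposited counts over TPM, was above the median of all genes for 40 of the 43 tested collagens, with a median of 2.24 times that of all genes. Across the 22360 genes the Spearman correlation between relative length and a library's deviation from the gene mean was -0.47 in control 2 and 0.18 to 0.30 in the other 5 libraries. Across the 43 collagens it was -0.40 in control 2 and 0.42 in overexpression library 3, and -0.11 to 0.17 in the other 4 libraries. Genes are not independent replicates, so these are descriptions. With the length trend removed from each library, an alternative chosen after seeing the data, the median log2 fold change of the 43 was 0.22 and 28 were above 0. Among all genes in that setting the median was 0.015 and 52.1% were above 0. Col6a1, Col6a2, Col5a1, Col4a1 and Col5a3 had log2 fold changes of 0.78, 0.80, 0.56, 0.77 and 0.82 in that setting, each with an unadjusted p under 0.05 by limma. Without control 2 these were 0.75, 0.92, 0.62, 0.72 and 0.92.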

How the data were processed

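Per the labels' protocols, RNA was isolated by Trizol and the TruSeq libraries keep the strand. The authors deposited whole-number counts per gene and a table of TPM for the same genes. The submitters' processing notes name FastQC 0.11.5, STAR 2.5.3a, Cuffnorm, DESeq 1.16.1 and mm10, with no roles. How the counts were made, on which annotation and with which strand option, is not given in the sources used here. Overlapping transcripts on opposite strands may share reads.

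Genes were kept by filterByExpr of edgeR 4.0.16 (minimum count 10), leaving 22360 genes. The test was edgeR's quasi-likelihood F test in R 4.3.3 with TMM scaling, a term for group and Benjamini-Hochberg adjustment over all tested genes. SE is the size of the log2 fold change over the square root of F. Log2 deviations by library use a prior count of 2. With 3 libraries a group, an exact two-sided permutation test has a smallest p of 0.1 and was left out. Positions are from GENCODE M21 (mm10) and promoters from RefSeq.

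The members, classes and lists were chosen with earlier results of these data known. Library values are given for the defining chains of each class, the members with the smallest p and highest level in each class and those with an unadjusted p under 0.05, and up to 4 genes with the smallest p from each related list; Serpinh1, Adgrg1, single marker genes and a few further members were named outside that rule, after their values were seen. Alternatives were other scaling factors and filters, DESeq2 1.42.0, limma 3.58.1 (voom, and log2 TPM with pseudocounts of 1 and 0.1), the replicate number as a block, omission of each library and an adjusted p of 0.1.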

Additional observations from a re-analysis of the deposited data

How the results depend on the processing

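No collagen passed an adjusted p of 0.05 in any edgeR or limma setting, and DESeq2 called 64 genes, of which 2 were collagens. The 5 collagens with an unadjusted p under 0.05 all stayed above 0 in the 16 other settings and kept that threshold in 15, with 3 of the 5 keeping it without overexpression library 2. The number of collagens with an unadjusted p under 0.05 was 8 by limma voom and 8 with the length trend removed, and 4 to 11 with single libraries left out, where the fits have fewer samples. The number over all genes was 1032 of 22360 by limma voom and 1476 of 22360 with the length trend removed. The 4 arose without overexpression library 2, beside 631 of 23005 genes, and the 11 without control 1, beside 1611 of 23119 genes. Of 43 collagens, 30 never changed sign and 13 did so in at least 1 setting. The median of type VI was 1.05 on log2(TPM + 1), 1.08 on log2(TPM + 0.1) and 0.30 with the length trend removed. In the same order that of fibrillar collagens was 0.44, 0.82 and 0.41, and that of the others 0.20, 0.37 and -0.13. The median of all collagens was 0.53 on log2(TPM + 0.1). TPM settings test only the 35 collagens with a mean of 0.5 TPM or more. Of type VI they leave out Col6a3, Col6a5 and Col6a6, so its TPM medians cover Col6a1, Col6a2 and Col6a4 alone. Of the others they leave out Col8a2, Col10a1 and Col17a1. In the TPM settings the median of all genes is shifted to 0.18 and 0.23. Without single libraries the median of the others ran from -0.17 to 0.12, turning below 0 without control 2 or overexpression library 1.

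On log2(TPM + 1) and log2(TPM + 0.1), the fold changes turned above 0 for Col22a1 (0.054 and 0.10), Col15a1 (0.048 and 0.077), Col25a1 (0.13 and 0.16) and Col20a1 (0.16 and 0.19). With the length trend removed they turned below 0 for Col27a1 (-0.10), Col5a2 (-0.10), Col7a1 (-0.024) and Col16a1 (-0.022). Sign changes without single libraries gave log2 ranges of Col15a1 -0.33 to 0.041, Col25a1 -0.53 to 0.093, Col20a1 -0.17 to 0.082, Col22a1 -0.43 to 0.11, Col5a2 -0.16 to 0.32, Col19a1 -0.21 to 0.61, Col4a6 -0.17 to 0.74, Col14a1 -0.49 to 0.54, Col27a1 -0.0011 to 0.21, Col13a1 -0.24 to 0.67, Col6a4 -0.18 to 0.76 and Col16a1 -0.020 to 0.30. The causes were not tested.

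The labels do not say whether equal replicate numbers pair the libraries. Correlations of deviations from the group means were 0.059, -0.020 and -0.010 for equal numbers, and -0.15 to 0.12 for unequal numbers. With 3 libraries a group, these values cannot decide whether the libraries are paired. With the replicate block 0 genes were called and the median over collagens was 0.38. In that setting 6 collagens had an unadjusted p under 0.05, beside 751 of 22360 genes. At 3 libraries a group, low members such as Col17a1 and Col6a6 give wide errors, and differences in them may be missed.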
